A study of Mus musculus with 6 samples.

Results

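Tuft cells are rare chemosensory cells of the gut epithelium, and 10 genes known from them were followed in colon RNA from mice with dextran sulfate sodium (DSS) colitis. The genes were fixed by symbol as *Dclk1*, *Trpm5*, *Pou2f3*, *Il25*, *Gnat3*, *Gng13*, *Avil*, *Sh2d6*, *Alox5* and *Alox5ap*. All 10 had a row in the deposited table of 18477 genes, and 7 passed the filter on low counts. The DSS group (n = 3 mice) and the DSS+BV group (n = 3 mice) were male C57BL/6 mice of 6 to 8 weeks. Both groups drank 2% DSS, which injures the colon epithelium, for the last 7 of 14 days. The DSS group received PBS by daily gavage for 14 days and the DSS+BV group received *Bacteroides vulgatus* in PBS, so DSS was shared by all 6 mice, and colons without DSS were not analysed here. Each library came from 1 mouse, and the comparison asked how gene expression in the inflamed colon differed when *B. vulgatus* was given.

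Tuft cells sense luminal compounds with the signalling parts of taste receptor cells. A receptor activates a G protein that contains the alpha subunit gustducin (*Gnat3*) and the gamma subunit *Gng13*, phospholipase C then releases calcium through the inositol trisphosphate receptor, and calcium opens the cation channel *Trpm5*. *Pou2f3* is the transcription factor required for the lineage. Activated tuft cells release IL-25, which acts on type 2 innate lymphoid cells, and leukotrienes made by 5-lipoxygenase (*Alox5*) with its activating protein (*Alox5ap*). The response of the epithelium to IL-13, in which tuft and goblet cells multiply, is best known from the small intestine infected with worms or protists.

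The promoters of *Trpm5*, *Sh2d6* and *Avil* are shown because the first pair moved together across the libraries and *Avil* did not follow them. Each is the RefSeq window from 250 bases before to 50 after the gene's start on GRCm38.p6, printed on the strand of the gene, at chr7:143094593-143094892 (minus strand) for *Trpm5*, chr6:72519987-72520286 (minus strand) for *Sh2d6* and chr10:127000459-127000758 (plus strand) for *Avil*. The RefSeq start of *Sh2d6* lies inside the longer span that GENCODE gives the gene. Capitals mark ATGCAAA or its reverse complement TTTGCAT, the first letters of the octamer ATGCAAAT that POU factors are known to bind.
Trpm5: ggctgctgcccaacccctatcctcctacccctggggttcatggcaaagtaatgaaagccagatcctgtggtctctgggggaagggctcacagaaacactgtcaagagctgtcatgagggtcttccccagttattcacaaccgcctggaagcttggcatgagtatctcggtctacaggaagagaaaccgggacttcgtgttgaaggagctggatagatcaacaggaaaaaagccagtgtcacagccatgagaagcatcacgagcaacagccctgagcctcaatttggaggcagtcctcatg
Sh2d6: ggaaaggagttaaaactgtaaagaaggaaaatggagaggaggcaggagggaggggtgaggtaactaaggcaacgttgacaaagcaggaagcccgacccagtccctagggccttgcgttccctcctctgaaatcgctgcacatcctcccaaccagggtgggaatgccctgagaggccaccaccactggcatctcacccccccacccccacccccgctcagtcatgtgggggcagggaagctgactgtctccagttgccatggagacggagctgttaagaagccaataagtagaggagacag
Avil: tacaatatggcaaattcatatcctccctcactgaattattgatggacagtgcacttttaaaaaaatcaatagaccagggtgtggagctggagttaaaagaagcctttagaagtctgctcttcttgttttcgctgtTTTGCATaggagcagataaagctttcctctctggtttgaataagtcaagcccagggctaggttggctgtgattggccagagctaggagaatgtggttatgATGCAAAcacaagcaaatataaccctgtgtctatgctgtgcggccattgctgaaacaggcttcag

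The octamer ATGCAAAT, read on both strands, was in 0 of the 9 promoter windows that RefSeq gave for 7 of the 10 genes, against 1.74% of all 32851 windows of this length. The shorter ATGCAAA, which every octamer match also contains, was in 1 of the 9 windows and in 4.63% of all windows. That window was the promoter of *Avil*, with 2 matches that begin 115 and 15 bases before the start site on opposite strands. A match is a description of the letters, and its absence from a window says only that these letters are not in it.

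The libraries held between 15293276 and 17254343 expected counts. No library was a repeat of another of its group within counting noise (chi-square over degrees of freedom at least 44.7). The libraries did not fall into the treatment groups by their whole profiles. The correlation across genes of log2 CPM between DSS 2 and each DSS+BV library lay between 0.960 and 0.970, above its values of 0.945 with DSS 1 and 0.945 with DSS 3, and DSS 1 was closest to DSS+BV 1 (0.972). The fold changes of the tuft cell genes are therefore given also without DSS 2 and DSS+BV 1. Both were picked for likeness to libraries of the other group, which by itself tends to widen the group differences. The p-values of that setting are therefore descriptions and not a test. Values are CPM, the usual count rate relative to the TMM-scaled library total. Fold changes are DSS+BV against DSS and come from quasi-likelihood fits in edgeR. Their p-values were adjusted over 14579 genes (Benjamini-Hochberg), and a gene was called at an adjusted p-value under 0.05 with an absolute log2 fold change over 1. Directions are on the TMM scale, and scaling to epithelial or to leukocyte marker genes would move the median log2 fold change of all genes to -0.47 or to 0.97.

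The label tuft cell was checked against 10 marker genes of these cells, among them *Dclk1*, *Trpm5*, *Pou2f3*, *Gfi1b*, *Avil*, *Sh2d6* and *Chat*. All 10 had counts in all 6 libraries, and 9 passed the filter. As 5 of the 10 belong to the genes described here, this says only that the transcripts were detected. Several are not particular to tuft cells, since *Dclk1* and *Chat* are also expressed by enteric neurons. In tissue RNA, fewer cells of a type and less RNA per cell cannot be told apart.

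None of the 7 tested tuft cell genes was called between the groups with edgeR or with DESeq2. Of all genes tested, 0.0892% were called lower and 0% higher with edgeR, and 2.01% were called in either direction with DESeq2. At an unadjusted p-value under 0.05, 1 of the 7 was lower (*Alox5ap*) and 0 were higher, against 9.12% and 3.4% of all tested genes. The median log2 fold change of the 7 was -0.18, with 4 below and 3 above 0, beside -0.01 over all tested genes. The genes did not share a direction. *Trpm5*, *Pou2f3* and *Sh2d6* had estimates above 0, and *Dclk1*, *Avil*, *Alox5* and *Alox5ap* had estimates below 0. With libraries scaled to epithelial genes the sign of *Trpm5* changed, and with scaling to leukocyte genes those of *Dclk1*, *Avil* and *Alox5* did. Without DSS 2 and DSS+BV 1 no sign changed and none of the 7 was called with edgeR, at log2 fold changes of 1.01 for *Trpm5*, 1.32 for *Pou2f3*, 1.19 for *Sh2d6*, -0.69 for *Dclk1*, -0.18 for *Avil*, -0.42 for *Alox5* and -1.98 for *Alox5ap*. *Alox5* and *Alox5ap* were lower in each DSS+BV library than in each DSS library, which makes 2 of 7 genes where 11.3% of all tested genes separated in this direction. For 0 of the 7 was each DSS+BV library higher, against 6.37% of all tested genes. For any 1 gene, exchanging the group labels of 3 and 3 mice gives two-sided exact permutation p-values of 0.1 or more.

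**Figure D1:**
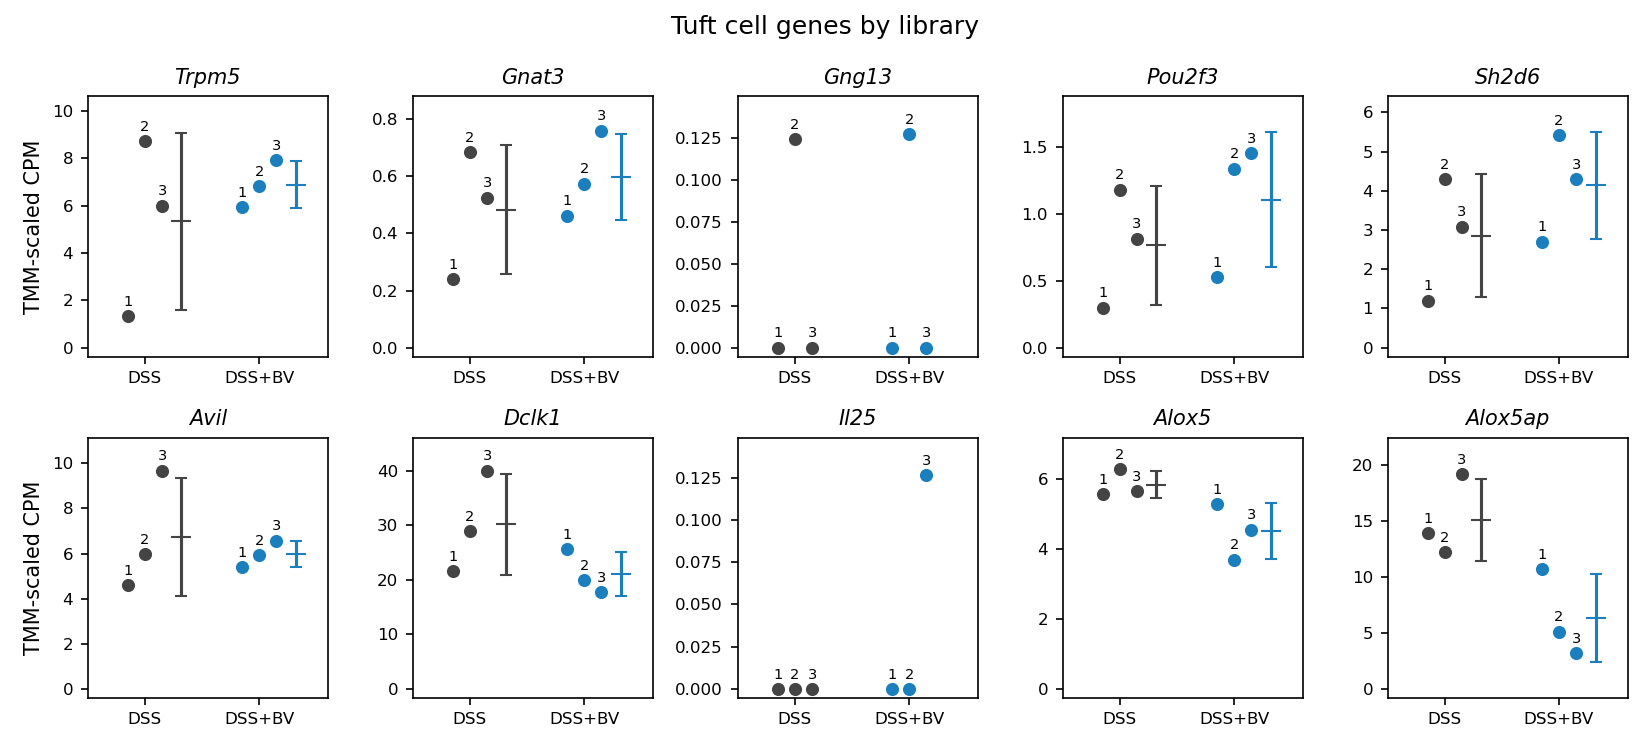
TMM-scaled CPM (vertical axis, linear, one scale per panel) of the 10 tuft cell genes in the DSS libraries (grey) and the DSS+BV libraries (blue), with replicate numbers above the points and the mean ± SD (n = 3) beside them except for *Gng13* and *Il25*, which had libraries at 0. DSS 1 was the lowest library for *Trpm5*, *Gnat3*, *Pou2f3*, *Sh2d6* and *Avil*, and the groups did not overlap for *Alox5* and *Alox5ap*.

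*Trpm5* (Entrez gene 56843, chr7:143069153-143094642, minus strand) encodes the calcium-activated cation channel that depolarises taste and tuft cells. It was at 1.32, 8.70 and 5.998 CPM in DSS mice 1, 2 and 3, whereas DSS+BV mice 1, 2 and 3 had 5.94, 6.82 and 7.90 CPM. The 3 DSS+BV libraries lay inside the range of the DSS libraries, which was set by DSS 1 below and DSS 2 above. The means were 5.34 ± 3.74 CPM and 6.89 ± 0.985 CPM (SD, n = 3 each), with a log2 fold change of 0.37 (standard error 0.60, 95% interval -1.07 to 1.81, edgeR adjusted p = 0.827). The low value in DSS 1 rested on 22 counts (exact 95% Poisson interval 13.8 to 33.3), where the other libraries had from 90 (72.4 to 110.6) to 140 (117.8 to 165.2) counts. Without DSS 1 the log2 fold change of *Trpm5* was -0.091, so the sign of the estimate rested on this library.

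*Pou2f3* (Entrez gene 18988, chr9:43123939-43210369, minus strand), the transcription factor of the lineage, was at 0.299, 1.18 and 0.815 CPM in the DSS libraries and at 0.528, 1.34 and 1.45 CPM in the DSS+BV libraries. DSS 1 was again lowest and DSS+BV 1 next, and the groups overlapped. These values rested on 5 to 23 counts per library. The log2 fold change was 0.53 (standard error 0.61, 95% interval -0.93 to 1.999, edgeR adjusted p = 0.745), and 0.15 without DSS 1.

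*Sh2d6* (Entrez gene 71130, chr6:72513641-72521707, minus strand) encodes a protein with an SH2 domain and is a marker of tuft cells. It was at 1.198, 4.29 and 3.09 CPM in the DSS libraries and at 2.70, 5.42 and 4.30 CPM in the DSS+BV libraries. The order of the 6 libraries differed from that of *Pou2f3* by the exchange of the top pair, DSS+BV 2 and DSS+BV 3. The means were 2.86 ± 1.56 CPM and 4.14 ± 1.36 CPM (SD, n = 3 each). The log2 fold change was 0.53 (standard error 0.51, 95% interval -0.68 to 1.75, edgeR adjusted p = 0.688), and 0.17 without DSS 1.

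*Gnat3* (Entrez gene 242851, chr5:17962549-18019834, plus strand), which encodes gustducin, was removed by the filter and not tested with edgeR, and DESeq2 gave a log2 fold change of 0.33 (adjusted p = 0.91). It had 4, 11 and 9 counts in the DSS libraries and 7, 9 and 12 counts in the DSS+BV libraries, from 0.240 CPM in DSS 1 to 0.759 CPM in the library DSS+BV 3. DSS 1 was lowest here as well, but its 95% counting interval of 1.09 to 10.2 counts reached into those of the other libraries. A difference between libraries was therefore not detectable for *Gnat3* at this depth.

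*Gng13* (Entrez gene 64337, chr17:25717171-25719406, plus strand), the gamma subunit that pairs with gustducin in taste cells, had 2 counts in DSS 2, 2 counts in DSS+BV 2 and 0 in the other libraries. *Il25* (Entrez gene 140806, chr14:54932695-54935837, plus strand), the cytokine by which tuft cells signal to innate lymphoid cells, had 2 counts in DSS+BV 3 and 0 in the other 5 libraries. Both genes were removed by the filter. A count of 0 allows up to 3 counts (one-sided 95% limit), which is 0.175 to 0.198 CPM in these libraries, so neither gene could be compared between the groups. For *Gng13*, 51.6% of its exonic bases also lay in exons of *Chtf18* on the opposite strand in the GENCODE M21 annotation, and the strand setting of the counting is not given in the sources used here. Reads of overlapping genes on opposite strands cannot be told apart without strand. The shared part was 3.44% for *Trpm5* (with *Tssc4*), 4.86% for *Avil* (with *Tsfm*), 13.3% for *Alox5ap*, 0.745% for *Dclk1* and 0% for *Pou2f3*, *Sh2d6*, *Gnat3*, *Il25* and *Alox5*.

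*Dclk1* (Entrez gene 13175, chr3:55242364-55539068, plus strand) encodes a microtubule-associated kinase that is used as a tuft cell marker and is also expressed in neurons. It was at 21.6, 29.0 and 40.0 CPM in the DSS libraries and at 25.7, 20.004 and 17.8 CPM in the DSS+BV libraries. DSS 3 was highest, DSS+BV 3 was lowest, and the groups overlapped because DSS 1 lay below DSS+BV 1. The means were 30.2 ± 9.26 CPM and 21.1 ± 4.07 CPM (SD, n = 3 each). The log2 fold change was -0.51 (standard error 0.27, 95% interval -1.15 to 0.12, edgeR adjusted p = 0.476), -0.71 without DSS 1 and -0.26 without DSS 3.

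*Avil* (Entrez gene 11567, chr10:127000709-127020994, plus strand) encodes advillin, an actin-binding protein of the tuft cell's apical bundle that is also found in sensory neurons. It was at 4.61, 5.97 and 9.67 CPM in the DSS libraries and at 5.41, 5.92 and 6.58 CPM in the DSS+BV libraries. DSS 3 stood above the others, which lay within 4.61 to 6.58 CPM, and the groups overlapped. The log2 fold change was -0.18 (standard error 0.32, 95% interval -0.94 to 0.59, edgeR adjusted p = 0.843), and 0.17 without DSS 3, so its sign rested on that library.

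Summed genes of enteric neurons and glia were highest in DSS 3, the library where *Dclk1* and *Avil* were highest too. The summed CPM of 12 such marker genes was 80.0, 151.5 and 321.0 in DSS mice 1, 2 and 3, whereas DSS+BV mice 1, 2 and 3 had 53.8, 55.4 and 62.0. The order of the other libraries differed. *Avil* was lowest in DSS 1 (4.61 CPM), where the sum was above each DSS+BV library. *Dclk1* fell from 25.7 CPM in DSS+BV 1 to 17.8 CPM in DSS+BV 3, while the sum rose. All 12 of these genes had log2 fold changes below 0, 0 were called with edgeR and 5 with DESeq2, 11 had an unadjusted edgeR p-value under 0.05 and the median was -1.64. Of all tested genes, 9.12% were lower at that edgeR p-value and 2.01% were called with DESeq2. The part of the neuron and glia genes in the *Dclk1* and *Avil* values was not tested.

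**Figure D2:**
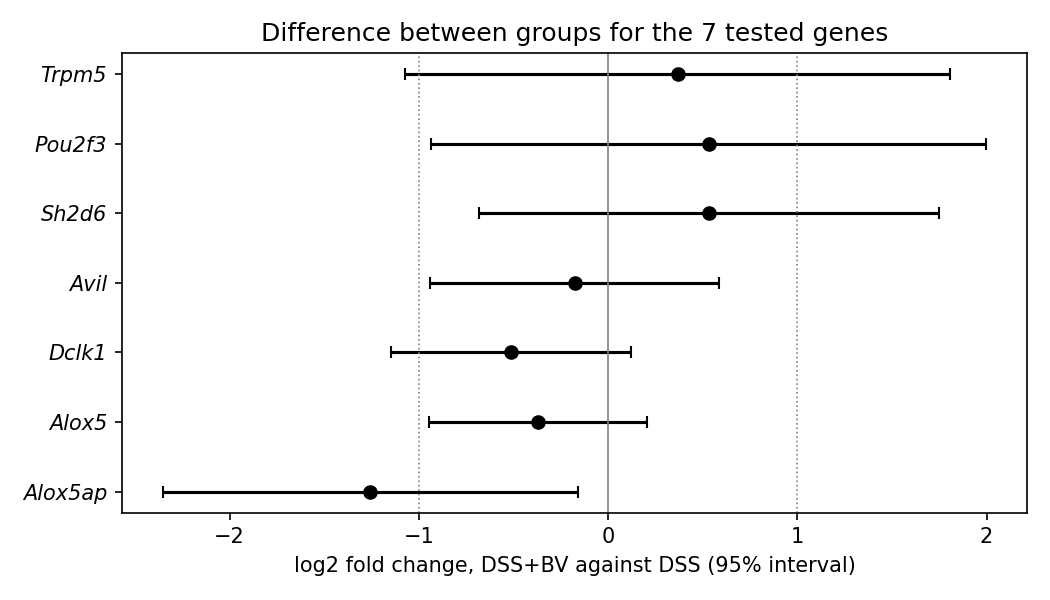
Log2 fold change of DSS+BV against DSS (horizontal axis) for the 7 tested tuft cell genes, as points with 95% intervals, where dotted lines mark log2 fold changes of -1 and 1. The intervals of 6 genes contain 0, and that of *Alox5ap* runs from -2.35 to -0.16.

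*Alox5* (Entrez gene 11689, chr6:116410077-116461178, minus strand) encodes 5-lipoxygenase, the first enzyme of leukotriene synthesis, which neutrophils, macrophages and mast cells also express. It was at 5.57, 6.28 and 5.65 CPM in the DSS libraries and at 5.28, 3.70 and 4.55 CPM in the DSS+BV libraries. The groups did not overlap, with a gap from 5.28 CPM in the library DSS+BV 1 to 5.57 CPM in DSS 1. The means were 5.83 ± 0.389 CPM and 4.51 ± 0.792 CPM (SD, n = 3 each), with a log2 fold change of -0.37 (standard error 0.24, 95% interval -0.95 to 0.20, edgeR adjusted p = 0.561).

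*Alox5ap* (Entrez gene 11690, chr5:149264767-149288153, plus strand) encodes the membrane protein that presents arachidonic acid to 5-lipoxygenase. It was at 13.9, 12.2 and 19.2 CPM in the DSS libraries and at 10.7, 5.10 and 3.16 CPM in the DSS+BV libraries. The groups did not overlap, and DSS+BV 1 lay nearest to the DSS libraries. The means were 15.1 ± 3.64 CPM and 6.31 ± 3.91 CPM (SD, n = 3 each). The log2 fold change was -1.26 (standard error 0.46, 95% interval -2.35 to -0.16), with adjusted p-values of 0.367 (edgeR) and 0.161 (DESeq2), so *Alox5ap* was not called. The estimate ran from -1.86 without DSS+BV 1 to -0.93 without DSS+BV 3, and was -1.98 without both DSS 2 and DSS+BV 1 (edgeR adjusted p = 0.0543). As those 2 libraries were picked by their profiles, the last p-value is not a test of the gene.

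Markers of leukocytes differed widely between the libraries in which *Alox5* and *Alox5ap* were measured. The summed CPM of 9 pan-leukocyte genes was 660, 350 and 1030 in DSS mice 1, 2 and 3, whereas DSS+BV mice 1, 2 and 3 had 801, 228 and 206, so the groups overlapped. That of 10 neutrophil genes was 669, 233 and 1062 against 333, 235 and 35.8, most of it in each library but DSS 2 from *Ly6g* alone, at 484.6, 76.1 and 854.5 against 302.6, 214.6 and 19.1 CPM. The other 9 neutrophil genes, summed without *Ly6g* after its values were seen, were at 184.2, 156.5 and 207.1 against 30.6, 20.7 and 16.7 CPM, and each of the 9 was lower in all DSS+BV libraries than in all DSS libraries, as *Alox5* and *Alox5ap* were. The sum of 11 macrophage and monocyte genes was 1291, 804 and 1929 against 1362, 572 and 537. Of the neutrophil genes, 6 of 10 were called lower with edgeR and 9 with DESeq2 (median log2 fold change -3.004), and of the macrophage genes 0 of 11 were called with either tool, with 1 lower at an unadjusted p-value under 0.05 (median -0.87). Of all tested genes, 0.0892% were called lower with edgeR and 2.01% in either direction with DESeq2. For 11.3% each DSS+BV library was lower, and 9.12% were lower at an unadjusted edgeR p-value under 0.05. The summed CPM of the 9 mast cell genes in the table overlapped between the groups, at 40.9 to 127.0 in DSS and 67.8 to 102.5 in DSS+BV. Most of it in each library came from *Kit*, at 25.1, 92.9 and 48.2 against 50.4, 56.2 and 97.4 CPM. *Mcpt1*, the next by mean CPM, was at 8.20, 17.2 and 5.53 against 13.5, 5.54 and 2.47 CPM.

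Set against *Ptprc*, the CD45 antigen of leukocytes, *Alox5ap* had 12.3, 22.1 and 12.1 counts per 100 *Ptprc* counts in the DSS libraries and 7.18, 12.4 and 8.65 in the DSS+BV libraries. The groups overlapped by this ratio, since DSS+BV 2 lay above DSS 1 and DSS 3. *Alox5* had 4.93, 11.4 and 3.58 counts per 100 *Ptprc* counts against 3.55, 8.96 and 12.5, and overlapped too. With libraries scaled to the leukocyte genes the log2 fold change of *Alox5ap* was -0.52 (edgeR adjusted p = 0.64), which is -1.50 relative to the median of all genes on that scale. The part of the neutrophil markers in the *Alox5* and *Alox5ap* values was not tested.

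*Trpm5*, *Sh2d6* and *Pou2f3* had the same lowest library (DSS 1) and the same next lowest library (DSS+BV 1), followed by DSS 3 for each. The spread from the highest to the lowest library was 6.61-fold for *Trpm5*, 4.86-fold for *Pou2f3* and 4.52-fold for *Sh2d6*, against 2.25-fold for *Dclk1*, 2.097-fold for *Avil*, 1.70-fold for *Alox5* and 6.06-fold for *Alox5ap*. Likeness of 2 profiles was measured as the root-mean-square difference of their log2 CPM, each centred on its own mean over the 6 libraries. Among the 7 tested genes the closest pair was *Pou2f3* and *Sh2d6*, at 0.20, and the farthest was *Trpm5* and *Alox5ap*, at 1.46. *Dclk1* was closer to *Alox5* (0.30) and *Avil* (0.31) than to *Sh2d6* (0.80), *Pou2f3* (0.83) or *Trpm5* (0.91). These distances are descriptions over 6 libraries.

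Ratios of counts within a library do not depend on the scaling. *Trpm5* had 6.09, 30.04 and 14.99 counts per 100 *Dclk1* counts in DSS mice 1, 2 and 3, whereas DSS+BV mice 1, 2 and 3 had 23.1, 34.1 and 44.5. The ratio varied over the libraries by more than *Avil* to *Dclk1*, which ran from 20.6 to 37.0 counts per 100. The *Trpm5* ratio overlapped between the groups because DSS 2 lay above DSS+BV 1.

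DSS 1, the lowest library for *Trpm5*, *Pou2f3* and *Sh2d6*, was also lowest for the epithelial markers, whose part in those values was not tested. The summed CPM of 13 epithelial markers was 12818 in DSS 1, 14660 in DSS 2 and 14526 in DSS 3, and 19265, 21009 and 16101 in DSS+BV 1, 2 and 3. *Trpm5* amounted to 0.103, 0.594 and 0.413 CPM per 1000 CPM of the epithelial list in the DSS libraries and to 0.308, 0.324 and 0.491 in the DSS+BV libraries, with DSS 1 lowest. *Dclk1* amounted to 1.69, 1.98 and 2.75 against 1.33, 0.952 and 1.10 by this ratio, lower in each DSS+BV library. *Alox5* and *Alox5ap* were lower in each DSS+BV library by it as well, and the other members overlapped. The epithelial sum, by which they are divided, was itself higher in each DSS+BV library. The enteroendocrine list, for another rare epithelial cell type, summed to 648, 338 and 932 CPM without *B. vulgatus* and to 576, 578 and 736 CPM with it, and its lowest library was DSS 2. All 13 epithelial genes had log2 fold changes above 0, with 0 called with edgeR or DESeq2, 4 higher at an unadjusted edgeR p-value under 0.05 and a median of 0.45. Of all tested genes, 3.4% were higher at that p-value.

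**Figure D3:**
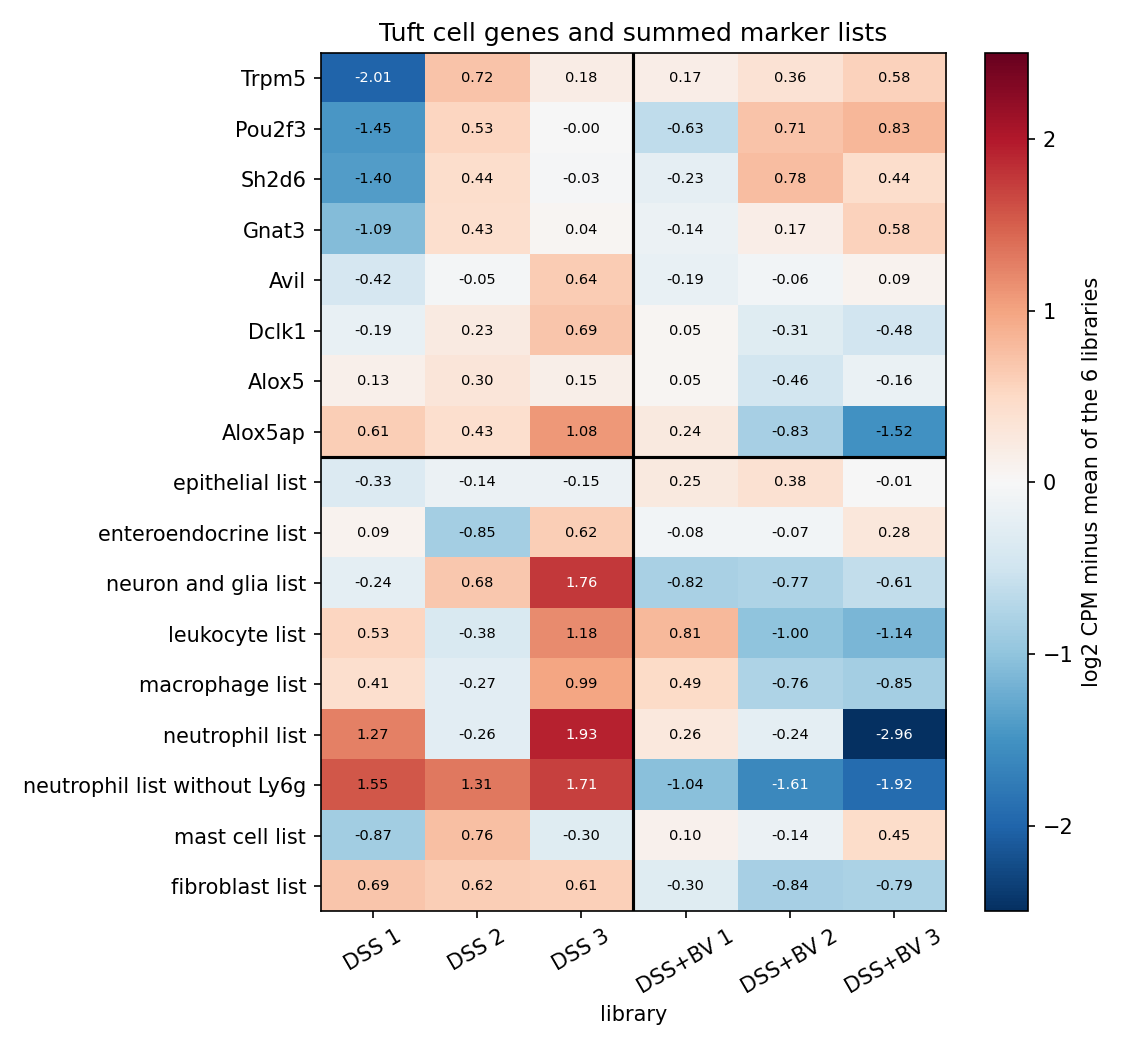
Log2 CPM minus the mean over the 6 libraries (colour and printed values) for 8 tuft cell genes (upper rows) and the summed CPM of 8 marker lists, 1 of them also without *Ly6g* (lower rows), with 1 column per library. Most of the mast cell list comes from *Kit*. *Trpm5* is at -2.01 in DSS 1, *Dclk1* is highest in DSS 3 at 0.69 together with the neuron and glia list at 1.76, and *Alox5ap* is lowest in DSS+BV 3 at -1.52, while the neutrophil list without *Ly6g* is between -1.92 and -1.04 in the 3 DSS+BV libraries and at least 1.31 in the DSS libraries.

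The 5 non-member genes closest to *Trpm5* in centred log2 CPM, among 14076 with a mean of at least 1 CPM, were *Cacna2d2* (distance 0.18), *Fer1l6* (0.24), *Calml4* (0.26), *Ctxn3* (0.28) and *Hepacam2* (0.29). *Sh2d6* would hold place 17 and *Pou2f3* place 60 in this order, while *Avil* would hold place 1862 and *Dclk1* place 6057. The 5 genes closest to *Alox5ap* were *Sema3a* (0.08), *Ccl7* (0.08), *Krt80* (0.10), *Abcb1b* (0.11) and *Itgam* (0.14). *Dclk1* would hold place 1479 and *Alox5* place 2556 in that order. Close profiles over 6 libraries are found by searching many genes, and nothing further is drawn from them.

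Levels were compared between the genes as CPM per kb of exonic length in GENCODE M21, which need not be the transcripts the authors counted. The median over the 6 libraries was 8.05 CPM per kb for *Alox5ap*, 2.18 for *Sh2d6*, 1.75 for *Avil*, 1.55 for *Dclk1*, 1.32 for *Alox5*, 1.001 for *Trpm5*, 0.403 for *Gnat3* and 0.323 for *Pou2f3*, and 0 for *Gng13* and *Il25*. The ranges of all neighbours in this order overlapped over the 6 libraries. Within libraries, *Dclk1* was above *Alox5*, *Trpm5* above *Gnat3*, and *Pou2f3* above *Gng13* in 6 of 6 libraries. Counting error could reorder *Dclk1* and *Alox5* in libraries such as DSS 1 (1.41 and 1.36 CPM per kb) and DSS+BV 3 (1.16 and 1.11 CPM per kb). It could also reorder *Trpm5* and *Gnat3* in DSS 1, where they were at 0.206 and 0.176 CPM per kb. *Gng13* was at 0 in DSS 1 and in DSS+BV 1, and in both 3 counts would place it above *Pou2f3*. *Alox5ap* was above *Sh2d6*, and *Gnat3* above *Pou2f3*, in 5 of 6. *Avil* was above *Dclk1* in 3 of 6, so these genes could not be ordered. *Dclk1* had the most counts of the chemosensory and marker genes, but it has 15.296 kb of annotated exons against 1.69 kb for *Sh2d6*.

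**Figure D4:**
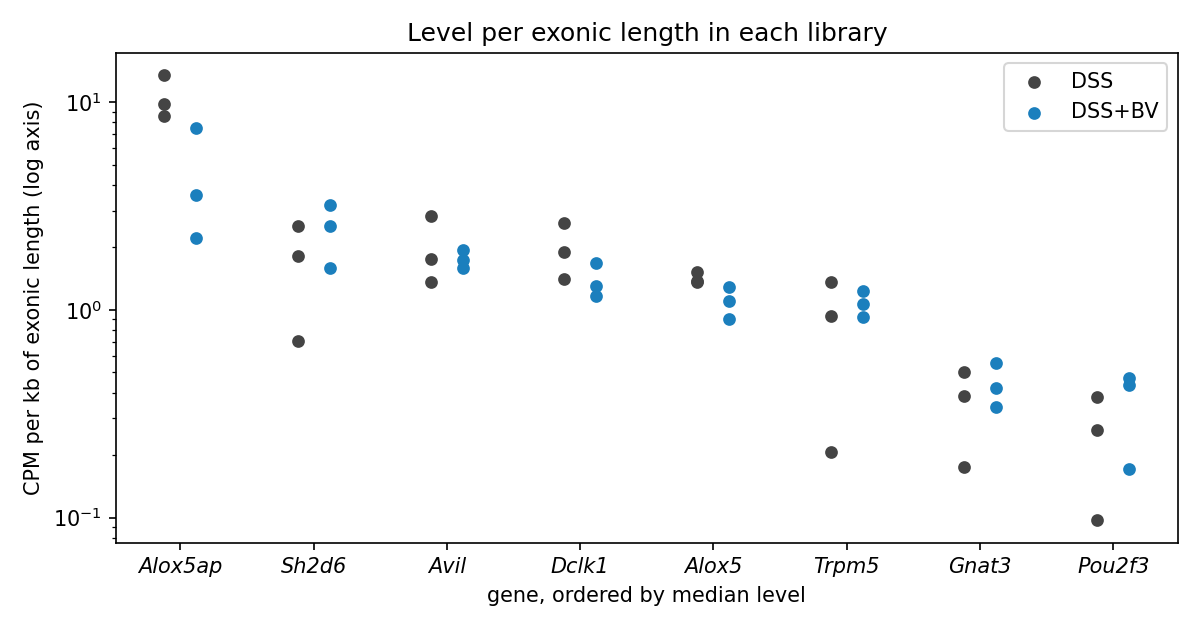
CPM per kb of exonic length (vertical axis, log scale) of the 8 tuft cell genes with counts in all 6 libraries, ordered by median, with DSS libraries in grey and DSS+BV libraries in blue. *Alox5ap* has the highest median (8.05) and *Pou2f3* the lowest (0.323), and neighbouring genes overlap.

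Other genes known from tuft cells were examined with a fixed list of 30, of which 29 were in the table and 25 were tested. None was called with edgeR. At an unadjusted p-value under 0.05, 1 was lower and 1 was higher, and with DESeq2 the same counts passed the threshold, for the same genes. The lower gene was *Cd300lf*, a lipid-binding receptor that tuft cells and myeloid cells express, at 12.2, 9.95 and 16.4 CPM without *B. vulgatus* and 6.93, 2.61 and 3.41 CPM with it (log2 fold change -1.57, standard error 0.42, edgeR adjusted p = 0.287, DESeq2 adjusted p = 0.021). The higher gene was *Inpp5j*, a phosphoinositide phosphatase, at 42.0, 75.0 and 41.3 CPM without *B. vulgatus* and 99.7, 127 and 121 CPM with it (log2 fold change 1.14, standard error 0.26, edgeR adjusted p = 0.245, DESeq2 adjusted p = 0.00924). Both had groups that did not overlap. Of the 25 tested genes, 3 separated lower and 2 higher with these included, against 11.3% and 6.37% of all tested genes. At an unadjusted edgeR p-value under 0.05, 9.12% of all tested genes were lower and 3.4% higher, and DESeq2 called 2.01% in either direction. The median log2 fold change of the list was -0.32, with 20 genes below and 5 above 0, against -0.01 over all tested genes.

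The list holds genes that leukocytes also express, such as *Vav1*, *Fyb*, *Ptpn6*, *Plcg2* and *Pik3r5*, with estimates below 0. Of the 25 tested genes of the list 20 were below 0, so that direction was not particular to the named genes. *Rgs13*, a regulator of G protein signalling, was above 0 at a log2 fold change of 0.26. So were *Siglecf*, a sialic acid receptor of tuft cells and eosinophils, at 0.19 and *Lrmp* at 0.03. Each of these estimates above 0 had a standard error above 0.5. The lineage repressor *Gfi1b*, the succinate receptor *Sucnr1*, *Hmx2* and *Kcnj16* were removed by the filter, and *Sucnr1* reached at most 0.319 CPM. *Gprc5c*, an orphan receptor, had a log2 fold change of -0.60 (edgeR adjusted p = 0.434).

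In the list of 21 taste signalling genes, 19 were in the table and 9 were tested. None was called with edgeR or DESeq2, 0 were lower and 1 was higher at an unadjusted p-value under 0.05, and the median log2 fold change was 0.36, with 8 above and 1 below 0, *Trpm5* being 1 of the 9. Of all tested genes, 9.12% were lower and 3.4% higher at that edgeR p-value. The groups did not overlap for 0 lower and 2 higher of the 9, against 11.3% and 6.37% of all tested genes. The gene higher at the unadjusted p-value was *Itpr3*, the inositol trisphosphate receptor that releases calcium in taste cells, at 185, 177 and 151 CPM without *B. vulgatus* and 240, 206 and 211 CPM with it (log2 fold change 0.36, standard error 0.14, edgeR adjusted p = 0.388). *Tas1r3*, the shared subunit of the sweet and umami receptors, was at 0.599, 0.995 and 0.932 CPM without *B. vulgatus* and 1.39, 1.27 and 1.58 CPM with it (log2 fold change 0.74, standard error 0.36, edgeR adjusted p = 0.45). Its groups did not overlap, and it was counted as separated higher in the wider tuft cell list as well. Lists that share such genes do not give separate counts. *Trpm4*, a relative of *Trpm5*, and *Itpr2* had log2 fold changes of 0.71 and 0.40 with overlapping groups. *Itpr3*, *Itpr2*, *Trpm4* and *Gnb1* are expressed well beyond tuft cells. *Tas1r1*, *Tas1r2*, *Tas2r108* and *Tas2r143* had at most 1 count in a library, and *Tas2r138* and *Calhm1* had 0 in all 6.

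The eicosanoid list held 24 genes, of which 20 were tested. None was called with edgeR, 6 were lower and 2 higher at an unadjusted p-value under 0.05, and the median log2 fold change was -0.26, with *Alox5* and *Alox5ap* themselves among the 20. Of all tested genes, 9.12% were lower and 3.4% higher at that edgeR p-value. The groups did not overlap for 7 lower and 1 higher of the 20, against 11.3% and 6.37% of all tested genes. With DESeq2, 2 were called, both lower, where 2.01% of all tested genes were called in either direction. One of them was *Ptges*, the inducible prostaglandin E synthase, at 28.02, 29.8 and 50.4 CPM without *B. vulgatus* and 18.7, 13.8 and 13.2 CPM with it (log2 fold change -1.25, standard error 0.28, edgeR adjusted p = 0.239, DESeq2 adjusted p = 0.0092). The other was *Ggt5*, which converts leukotriene C4 to D4 (log2 fold change -1.08, edgeR adjusted p = 0.281, DESeq2 adjusted p = 0.0358). *Dpep2*, a dipeptidase of the next step, had a log2 fold change of -1.38 and *Ltb4r1*, the high-affinity leukotriene B4 receptor, one of -1.58, both with groups that did not overlap (edgeR adjusted p = 0.296 and 0.313).

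*Ltc4s*, leukotriene C4 synthase, was estimated at -0.23 on the log2 scale (standard error 0.45) with overlapping groups. *Lta4h*, which makes leukotriene B4, was at 95.6, 86.0 and 71.0 CPM without *B. vulgatus* and at 117, 121 and 116 CPM with it (log2 fold change 0.49, standard error 0.14, edgeR adjusted p = 0.32), and all DSS+BV libraries were higher. The prostaglandin enzymes known from tuft cells, *Ptgs1* and *Hpgds*, had log2 fold changes of -0.20 and -0.22 with overlapping groups.

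The IL-25 receptor and type 2 list held 22 genes, of which 21 were in the table and 15 were tested. None was called with edgeR, 4 were lower and 0 higher at an unadjusted p-value under 0.05, 1 was called lower with DESeq2, and the median log2 fold change was -0.29. Of all tested genes, 9.12% were lower and 3.4% higher at that edgeR p-value, and 2.01% were called with DESeq2. The groups did not overlap for 3 lower and 0 higher of the 15, against 11.3% and 6.37% of all tested genes. The gene called with DESeq2 was *Il33*, the alarmin of the IL-1 family that acts beside IL-25 on innate lymphoid cells, at 50.1, 50.4 and 62.5 CPM without *B. vulgatus* and 15.5, 23.9 and 11.9 CPM with it (log2 fold change -1.67, standard error 0.27, edgeR adjusted p = 0.144, DESeq2 adjusted p = 2.52e-05). *Il4ra*, the receptor chain through which IL-4 and IL-13 signal, had a log2 fold change of -0.67 and *Crlf2*, the TSLP receptor, one of -0.96, with groups that did not overlap (edgeR adjusted p = 0.329 and 0.356). *Il13ra2*, the decoy receptor of IL-13, had a log2 fold change of -2.28 with overlapping groups (edgeR adjusted p = 0.37).

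The IL-25 receptor chain *Il17rb* was at 1.86, 1.87 and 3.26 CPM without *B. vulgatus* and 2.31, 2.04 and 2.21 CPM with it, with a log2 fold change of -0.09 (standard error 0.34). The type 2 cytokines were at the limit of detection, with at most 1 count per library for *Il4* and *Il13* and at most 2 for *Il5*. The goblet cell genes *Clca1* and *Retnlb*, which IL-13 is known to induce, had log2 fold changes of -0.25 and -1.10 with standard errors of 0.57 and 0.67, and their groups overlapped.

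Markers of 2 other cell types are set beside single genes of these lists. The summed CPM of the eicosanoid list overlapped between the groups, at 613, 672 and 651 in DSS and 642, 679 and 760 in DSS+BV. So did that of the type 2 list, at 1928, 3141 and 6434 in DSS and 4225, 2722 and 2473 in DSS+BV. Most of it in each library came from the goblet cell gene *Clca1*, at 1236, 2107 and 5508 against 3557, 2015 and 1865 CPM. That sum therefore says little about the other type 2 genes. The summed CPM of 9 fibroblast genes, of which 0 were called with edgeR, 3 were called lower with DESeq2 and 7 were lower at an unadjusted edgeR p-value under 0.05, was 4263, 4069 and 4018 in DSS mice 1, 2 and 3, whereas DSS+BV mice 1, 2 and 3 had 2149, 1480 and 1533, lower in each DSS+BV library as *Il33*, *Ptges* and *Ggt5* were. That of 8 B cell genes was 707, 558 and 1676 against 1191, 270 and 249. Most of it in each library came from *Jchain*, at 533, 537 and 1378 against 937, 260 and 235 CPM. Of the 8 B cell genes, 0 were called with edgeR or DESeq2 and 0 had an unadjusted edgeR p-value under 0.05. The *Spib* level, from the wider tuft cell list, ran alongside the B cell sum. It was at 21.0, 9.01 and 38.2 CPM without *B. vulgatus* and 41.2, 7.77 and 8.41 CPM with it. Of all tested genes, 9.12% were lower at an unadjusted edgeR p-value under 0.05 and 2.01% were called with DESeq2. The part of these cell types in the lists was not tested.

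**Figure D5:**
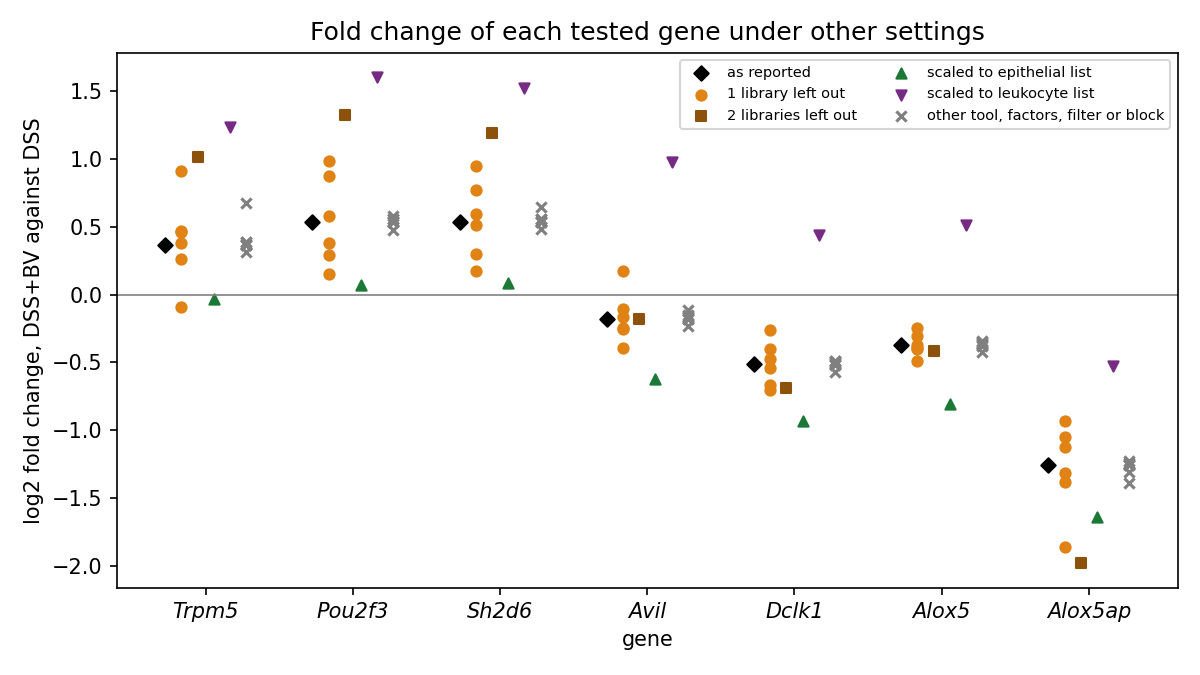
Log2 fold change of DSS+BV against DSS (vertical axis) of the 7 tested tuft cell genes as reported (diamonds) and under other settings, with 1 point per setting. The estimate of *Trpm5* runs from -0.091 without DSS 1 to 1.24 with libraries scaled to leukocyte genes, and that of *Alox5ap* is below 0 in all settings shown.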

How the data were processed

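The authors sequenced colon RNA from 3 DSS and 3 DSS+BV mice and deposited RSEM expected counts per gene, not scaled between libraries. The submitters' processing notes name RSEM 1.2.8, Bowtie2 2.2.5, HISAT2 2.1.0 and the build GRCm38.p6, and the strand setting is not given in the sources used here. Libraries were matched to groups by their titles. The members and gene lists were chosen with earlier results of these data known.

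Expected counts were rounded to whole numbers, filtered with filterByExpr (minimum count 10, minimum total 15), scaled with TMM factors and tested by quasi-likelihood in edgeR (version 4.0.16, R 4.3.3), adjusted over 14579 genes. The study's methods used DESeq2, which was an alternative here (version 1.42.0, independent filtering at 0.05). Standard errors are the absolute log2 fold change divided by the square root of the F statistic, and 95% intervals use the t quantile of the test's degrees of freedom. The tests were checked on simulated data first. Likeness used log2 CPM with a prior count of 2. Poisson intervals and floors of 3 counts cover counting error only. Alternatives were DESeq2, RLE or upper-quartile factors, scaling to epithelial or leukocyte genes, a robust fit, no filter or a stricter one, a replicate block and leaving out libraries.

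Named genes are the 10 members, up to 4 others per list by smallest p-value, and the 5 closest to *Trpm5* and to *Alox5ap*. Other genes are named as levels, markers or list members, chosen after their values were seen. Coordinates and exonic lengths are from GENCODE M21 (GRCm38) and promoters from RefSeq (GRCm38.p6). RefSeq gave no promoter here for *Pou2f3*, *Il25* and *Alox5ap*. Figures were drawn with matplotlib 3.10.9.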

Additional observations from a re-analysis of the deposited data

How the results depend on the processing

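Under 16 alternatives, 106 of 112 estimates for the 7 tested tuft cell genes kept their sign, 6 changed sign, and none passed the threshold. Scaling to the 9 leukocyte genes moved the median of all genes to 0.97 and turned *Dclk1* to 0.44, *Avil* to 0.97 and *Alox5* to 0.51. Relative to that median they were at -0.54, 0.00 and -0.46. *Alox5ap* stood at -0.52 under that scaling. Scaling to the 13 epithelial genes moved the median to -0.47 and turned *Trpm5* to -0.032, 0.44 above that median. The other changes of sign were *Trpm5* without DSS 1 (-0.091) and *Avil* without DSS 3 (0.17). With 1 library left out in turn, *Alox5ap* ran from -1.86 to -0.93, *Dclk1* from -0.71 to -0.26, *Alox5* from -0.49 to -0.24, *Pou2f3* from 0.15 to 0.98, *Sh2d6* from 0.17 to 0.95, *Trpm5* from -0.091 to 0.91 and *Avil* from -0.39 to 0.17.

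The count of called tuft cell genes was 0 in each alternative. DESeq2 called 2 genes of the wider tuft cell list, 2 of the eicosanoid list and 1 of the type 2 list, where edgeR called 0. Without DSS 2 and DSS+BV 1, edgeR called 3 genes of the wider tuft cell list (*Cd300lf* and *Vav1* lower, *Inpp5j* higher), 1 of the taste list (*Trpm4*, higher), 1 of the eicosanoid list (*Ggt5*, lower) and 1 of the type 2 list (*Il13ra2*, lower), and over all genes 333 lower and 282 higher, against 13 and 0. These 2 libraries were named with earlier results known and for their likeness to the other group. Leaving them out tends to widen the group differences, so these calls are not a test. Scaling to epithelial genes called 1 type 2 gene, *Il33*, and over all genes 84 lower and 0 higher. With 1 library left out in turn, each of these lists had 0 calls. Over all genes those settings called at most 3 lower and 4 higher, so 0 calls in a short list says little about it.

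The replicate number as a block left 0 tuft cell genes called and took the calls over all genes from 13 to 0. Whether the numbers pair the mice is not given in the sources used here. The correlations of same-numbered deviations were 0.238, 0.280 and -0.311, and those of differently numbered ones ran from -0.573 to 0.482. With 3 libraries per group these values cannot decide it. Depth limits *Gnat3*, *Gng13* and *Il25*, which had at most 12, 2 and 2 counts in a library.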
